A study of Homo sapiens with 3 samples.

Results

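The alanine, glycine and proline tRNA probes Ala1h, Ala2h, Gly1h, Gly2h and Pro1h were 5 of the 41 human tRNA probes on the arrays. They were chosen by amino acid, from the probe names in the scanner tables, because their tRNAs read codons rich in G and C. Each probe was printed in 16 spots per array. All 80 spots of the 5 probes were unflagged in ratio 1, while Ala2h lost 2 of its 16 spots to flags in ratio 3 and 1 on the dye control array. All 5 probes passed into the fit, as no probe was removed for low values. The spiked alanine standard, named E.c. Ala-5 in the tables and credited to yeast in the labels, was not counted among them.

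The arrays set RNA from MCF-10A cells depleted of eIF3e against RNA from MCF-10A cells given a control siRNA, with 20 nM of either siRNA for 72 h. MCF-10A is an immortalised, non-tumorigenic cell line from human breast epithelium, and all cultures grew in medium with serum, hydrocortisone, insulin and EGF. eIF3e is a subunit of eIF3, the largest of the factors that start translation, and the study's title places eIF3 on elongating ribosomes as well. Knockdown RNA carried Cy3 and control RNA carried Atto635 on every array, and dyes were not swapped. As read from the replicate numbers in the sample titles, the 3 ratios came from 2 knockdown and 3 control cultures. Ratios 1 and 2 shared 1 knockdown RNA and, in the deposited tables, the same Cy3 readings, so ratio 2 adds only the Atto635 readings of another control RNA. The arrays carried only tRNA probes, so neither the depth of the knockdown nor markers of the cell line could be checked on them. The values are read here as abundance, but the labels place periodate oxidation under abundance arrays, and if it was used the ligated tRNA would be the charged part rather than the total.

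A tRNA joins its amino acid at the 3' CCA end and reads messenger RNA through its anticodon. Alanine, glycine and proline each have a family box of codons, GCN, GGN and CCN, in which the third base can be any base, so several anticodons serve each amino acid and wobble pairing covers the rest. In alanine and proline tRNAs with a first anticodon A, that base is deaminated to inosine, which lets 1 tRNA read several codons. Proline is also known as a slow substrate of the ribosome, and runs of proline depend on the factor eIF5A. Glycine and alanine are the smallest amino acids and are abundant in human proteins.

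In the RefSeq annotation of GRCh38.p14, 33 nuclear tRNA genes were annotated for alanine, 30 for glycine and 20 for proline. Of the alanine genes, 20 carry the anticodon AGC, 8 carry TGC and 5 carry CGC, and 26 of the 33 lie on chromosome 6. The glycine genes divide into 13 with GCC, 9 with TCC and 8 with CCC, with 18 of the 30 on chromosome 1. For proline there were 9 genes with AGG, 7 with TGG and 4 with CGG, with 7 of the 20 on chromosome 16. Which of these anticodons a probe detects is not given by its name, so Ala1h and Ala2h, or Gly1h and Gly2h, cannot be tied to an anticodon here. Near-identical tRNAs of 1 amino acid may also share a probe.

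Both channels gave signal at all 5 probes, and none of their unflagged spots had a saturated pixel in ratios 1 and 3 or on the dye control array. Saturation of the Atto635 readings of control RNA 2 could not be checked, since that table repeats the saturation column of ratio 1. Its flags are also those of ratio 1, so these readings were filtered on no flags of their own. Gly1h, a glycine probe, had median background-subtracted intensities of 8012.5 and 6085 in the knockdown RNAs 1 and 2 (Cy3). In the control RNAs 1, 2 and 3 (Atto635) its medians were 5335.5, 3506.5 and 2158.5. Pro1h, the single proline probe, had medians of 7511.5 and 5622 in the knockdown RNAs, against 4981.5, 3161 and 2037 in the control RNAs. The dyes were scanned separately, so the higher Cy3 intensity of these probes is not by itself a higher level after knockdown, and the ratios below are scaled on the spiked standards.

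Gly2h, the other glycine probe, had medians of 4465 and 3556.5 in the knockdown RNAs and of 2654, 2345 and 1303.5 in the control RNAs. Ala2h had medians of 3526.5 and 2496 in the knockdown RNAs and of 1898, 2141 and 931.5 in the control RNAs. Among the 5, Ala2h was the only probe whose intensity in control RNA 2 was above that in control RNA 1.

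Ala1h was dim, with medians of 521 and 399 in the knockdown RNAs and of 289.5, 213 and 118.5 in the control RNAs. The local background that had been subtracted at its spots was 37 and 34 in Cy3, and 29 and 28 in the Atto635 readings of ratios 1 and 3. Spots printed with water alone had median Cy3 intensities of 4207.5 in ratio 1 and 11207 in ratio 3, above 2 of these 5 probes in ratio 1 (Ala1h and Ala2h) and above all 5 in ratio 3. By the median pixel of a spot, the water spots stood at 33 and 290, against 522 and 415 for Ala1h. The part of stray signal in the probe ratios was not tested.

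**Figure D1:**
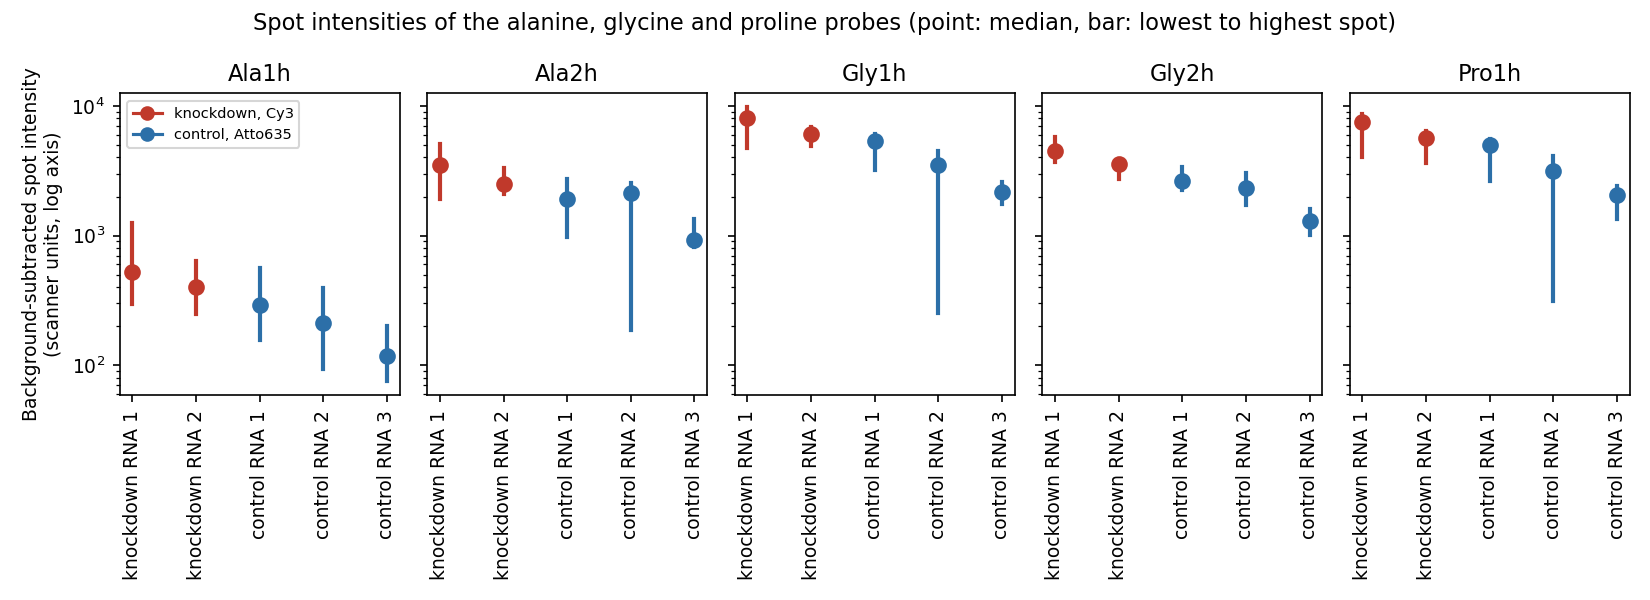
Background-subtracted spot intensity (log axis) of each probe in the 2 knockdown RNAs (Cy3) and the 3 control RNAs (Atto635), with the median as a point and the lowest to the highest unflagged spot as a bar. The medians of Ala1h lie between 118.5 and 521, and the bars of Ala2h, Gly1h and Pro1h in control RNA 2 reach down to 186, 253 and 315. The flags used for control RNA 2 are those of ratio 1.

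The spots of a probe agreed closely within ratios 1 and 3. In ratio 3 the SD of the spot log2 ratios lay between 0.0616 for Pro1h and 0.0989 for Ala1h. In ratio 1 it was 0.0524 to 0.0736 for the other 4 probes and 0.288 for Ala1h. In ratio 2 it was 0.265 for Gly2h, 0.393 for Ala1h, 0.897 for Pro1h, 0.961 for Ala2h and 1.05 for Gly1h. A spot bright in Cy3 for its probe was mostly bright in Atto635 too in ratios 1 and 3, where the correlation of the deviations was 0.930 over 80 spots and 0.958 over 78. The same correlation was 0.194 over 80 spots in ratio 2. Spots of 1 array are no replicates. A total of 7 of the 80 spots in ratio 2 lay more than 1 log2 unit from their probe's median, 4 of them at Ala2h, against 1 in ratio 1 and 0 in ratio 3. A probe's value is the median of its spots, so single spots weigh little. Still, the values of ratio 2 are less secure than those of ratios 1 and 3, and that of Ala2h, with 4 far spots, is the least secure.

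After scaling on the standards, none of the 5 probes differed between knockdown and control beyond the error of the fit. Ala1h had log2 ratios of knockdown over control of 0.070, 0.34 and 0.24 in ratios 1, 2 and 3. All 3 were above 0, and the estimate was 0.22 (1.16-fold, SE 0.13, 95% interval -0.046 to 0.48, limma adjusted p = 0.204). For this dim probe the background correction mattered, with 0.42 without normexp (limma adjusted p = 0.0777) and 0.43 with an offset of 0 in place of 50 (limma adjusted p = 0.0627). Ala2h had ratios of 0.12, 0.11 and 0.16 (SD 0.028, n = 3), with an estimate of 0.14 (1.10-fold, SE 0.13, interval -0.13 to 0.40, limma adjusted p = 0.396).

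Gly1h stood at -0.086, 0.33 and 0.28, below 0 in ratio 1 and above it in the others, with an estimate of 0.19 (1.14-fold, SE 0.13, interval -0.076 to 0.45, limma adjusted p = 0.242). Gly2h stood at 0.032, 0.13 and 0.18, above 0 in all 3, with an estimate of 0.12 (1.09-fold, SE 0.13, interval -0.14 to 0.39, limma adjusted p = 0.444). Pro1h followed Gly1h, at -0.091, 0.32 and 0.24, with an estimate of 0.17 (1.12-fold, SE 0.13, interval -0.096 to 0.43, limma adjusted p = 0.285).

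The share of all 41 human probes called at an adjusted p under 0.05 was 9.76% higher (4 probes) and 2.44% lower (1 probe), against 0 of the 5 in either direction by limma, where 0 of the 5 also reached an unadjusted p under 0.05, as 15 of the 41 did. The limma SE is a common one, as the fit pooled the variance of all 41 probes completely. The probes' own SDs on this scale were 0.028 for Ala2h, 0.075 for Gly2h, 0.13 for Ala1h, 0.22 for Pro1h and 0.23 for Gly1h, an order that changed with median centring, where Ala2h had the widest SD (0.12). The intervals still leave room for rises as large as 0.39 in log2 for Gly2h and 0.48 for Ala1h. That the cultures are separate is read from the replicate numbers in the sample titles. With 2 knockdown RNAs, the spread between knockdown cultures rests on 1 difference.

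**Figure D2:**
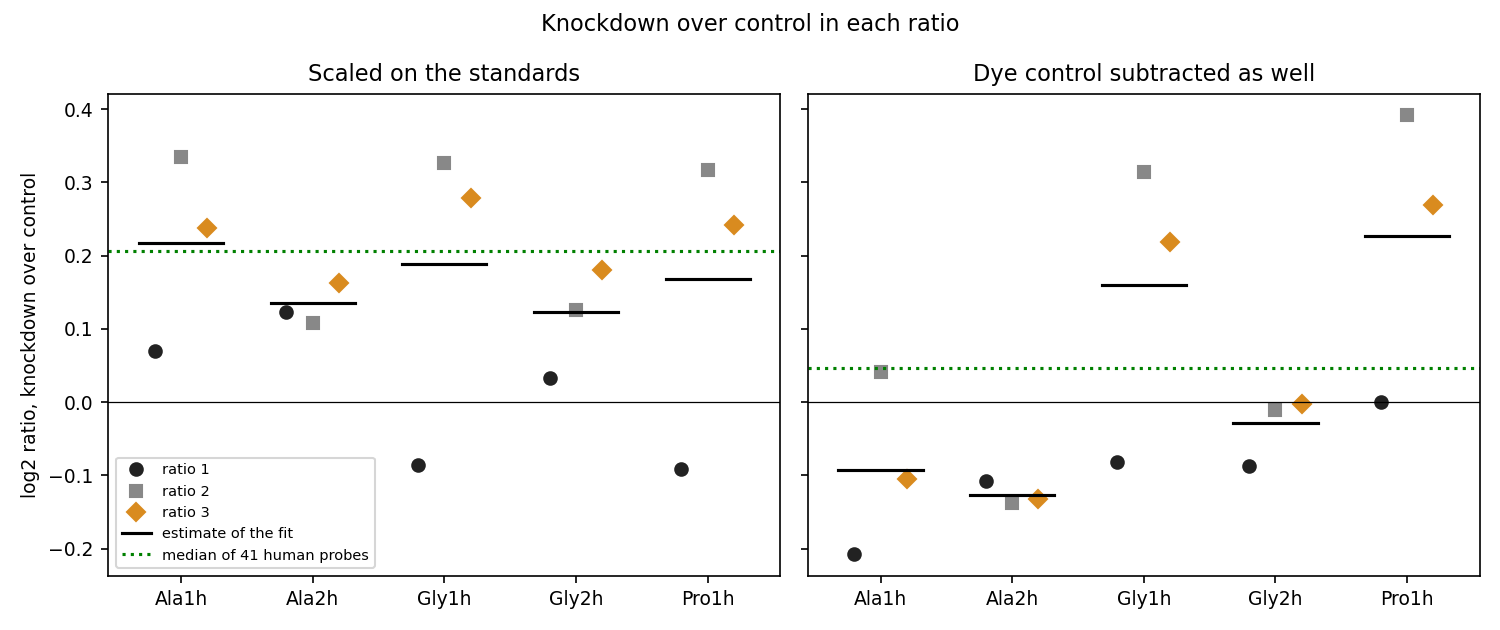
log2 ratio of knockdown over control for each probe in ratios 1, 2 and 3, scaled on the standards (left) and after dye subtraction (right), with the estimate of the fit as a bar and the median estimate of the 41 human probes as a dotted line. In the left panel all 5 estimates lie between 0.12 and 0.22, and in the right panel those of Pro1h and Gly1h (0.23 and 0.16) lie above those of Gly2h, Ala1h and Ala2h (-0.029, -0.092 and -0.13).

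The dye control array gave Cy3 over Atto635 ratios that differed among the 5 probes. Scaled on the standards, its log2 ratio was 0.27 for Ala1h, the second highest of the 41 probes, and 0.22 for Ala2h, the eighth highest. It was 0.11 for Gly2h, close to the median human probe (0.11), and -0.013 for Gly1h and -0.10 for Pro1h, at positions 35 and 37 of 41. The sources used here do not say which RNA each channel of this array held. Relative to the median standard, the alanine probes thus lay on the Cy3 side of the dye control. Pro1h lay on its Atto635 side, and Gly1h only just (-0.013).

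Subtraction of the dye control moved the probes apart. Pro1h stood at 0.00034, 0.39 and 0.27, with an estimate of 0.23 (1.17-fold, SE 0.12, interval -0.021 to 0.48, limma adjusted p = 0.330). Gly1h stood at -0.082, 0.31 and 0.22, with an estimate of 0.16 (1.12-fold, SE 0.12, interval -0.089 to 0.41, adjusted p = 0.646 in limma). These estimates took the 8th and 10th places among the 41 human probes.

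Gly2h stood at -0.087, -0.010 and -0.0030 with the dye control subtracted, below 0 in all 3, with an estimate of -0.029 (0.980-fold, SE 0.12, interval -0.27 to 0.21, limma adjusted p = 0.949). Ala1h stood at -0.21, 0.041 and -0.10, with an estimate of -0.092 (0.938-fold, SE 0.12, interval -0.34 to 0.15, limma adjusted p = 0.841). Ala2h stood at -0.11, -0.14 and -0.13, below 0 in all 3, with an estimate of -0.13 (0.916-fold, SE 0.12, interval -0.37 to 0.11, limma adjusted p = 0.693). Both alanine probes and Gly2h therefore changed sign between the uncorrected and the corrected values.

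With this correction limma called 4.88% of the 41 probes higher and 0% lower, and 0 of the 5, none of which reached an unadjusted p under 0.05, as 7 of the 41 did. All corrected ratios share 1 dye control array, and its own error is not in the SE.

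The authors' deposited table of linear ratios per probe shows the same division of the 5. In the authors' deposited table Pro1h was at 1.05, 1.33 and 1.26 and Gly1h at 0.987, 1.24 and 1.20 in the 3 ratios. Gly2h was at 0.992, 0.997 and 1.04 there, Ala2h at 0.977, 0.926 and 0.955 and Ala1h at 0.835, 0.976 and 0.997 in the authors' deposited table. Over the 40 human probes that the authors' deposited table holds, its log2 values correlated with the corrected ratios at 0.968, 0.970 and 0.943, and with the uncorrected ones at 0.662, 0.662 and 0.488. The deposited ratios therefore follow the corrected values, though the sources used here do not give their exact centring. They come from the same arrays and are no second measurement.

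A shift of the median human probe was part of the uncorrected ratios. The median of the 5 probes stood at 0.032, 0.32 and 0.24 in the 3 ratios, against 0.050, 0.26 and 0.28 for the median of all 41. Over the estimates, the median of the 5 was 0.17, against 0.21 for all 41, and 5 of the 5 lay above 0, against 37 of the 41. With the dye control subtracted the medians were -0.029 for the 5 and 0.046 for all 41, with 2 of the 5 and 27 of the 41 above 0.

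Centred on the median human probe of each array, which removes that shift, the estimates were 0.0071 for Ala1h, -0.022 for Gly1h, -0.042 for Pro1h, -0.075 for Ala2h and -0.088 for Gly2h (SE 0.069 to 0.073). The lowest limma adjusted p among them was 0.422, for Gly2h, and 0 of the 5 were called, against 9.76% of all probes called higher and 9.76% called lower. At an unadjusted p under 0.05 there were 0 of the 5 and 10 of the 41. Relative to the median human probe and without dye correction, none of the 5 had an estimate beyond 0.088 in log2 from 0.

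With median centring and dye subtraction together, Pro1h was at 0.17 (SE 0.069, interval 0.012 to 0.32, limma adjusted p = 0.110), higher in 3 of 3 ratios at 0.095, 0.26 and 0.15. Ala1h was at -0.15 (SE 0.063, interval -0.29 to -0.011, limma adjusted p = 0.110), lower in 3 of 3 ratios at -0.11, -0.091 and -0.22. Ala2h was at -0.19 (SE 0.083, interval -0.37 to -0.00078, limma adjusted p = 0.135), lower in 3 of 3 ratios at -0.013, -0.27 and -0.25. These 3 reached an unadjusted p under 0.05, as did 15 of the 41 probes, and failed the correction for multiple tests. Gly1h was at 0.0998 (limma adjusted p = 0.415) and Gly2h at -0.089 (limma adjusted p = 0.417). Of all probes 7.32% were called higher and 2.44% lower in this setting.

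**Figure D3:**
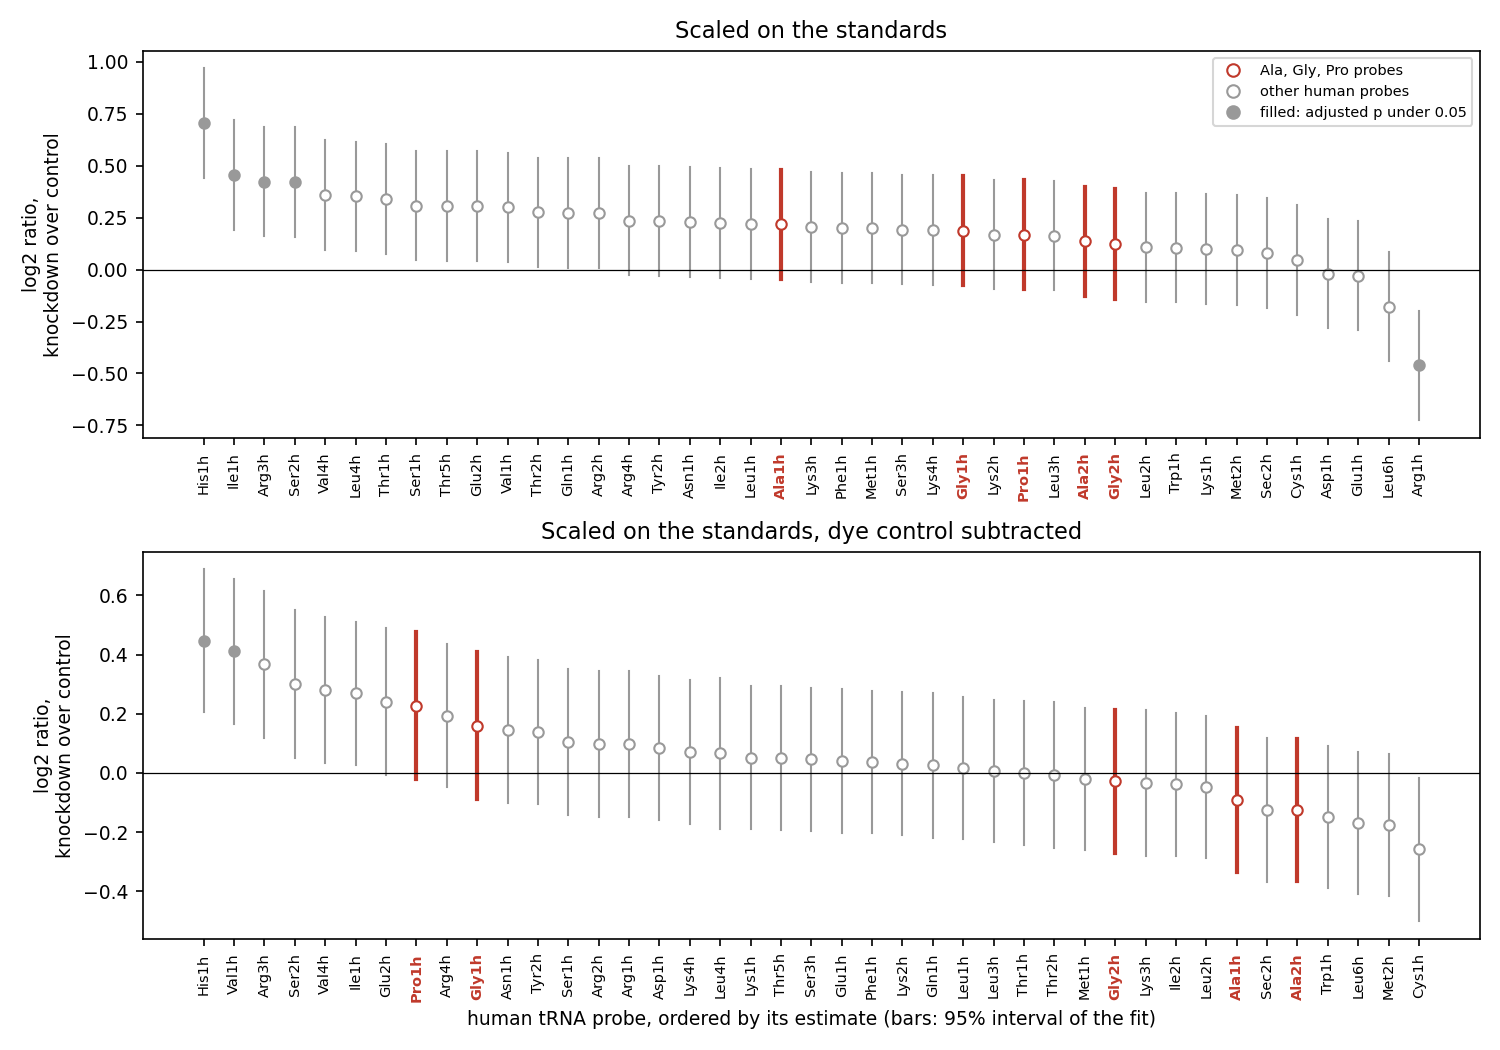
Estimates for all 41 human tRNA probes, ordered from highest to lowest, with 95% intervals of the limma fit, scaled on the standards (top) and with the dye control subtracted (bottom). The intervals of Ala1h, Ala2h, Gly1h, Gly2h and Pro1h (red) include 0 in both panels, and the 5 probes spread over 0.095 in log2 in the top panel and over 0.35 in the bottom one.

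Within the uncorrected values the order was Ala1h, Gly1h, Pro1h, Ala2h and Gly2h, from 0.22 down to 0.12. Every step between neighbours was at most 0.033, beside an SE of 0.13 for a single estimate. With the dye control subtracted the order was Pro1h, Gly1h, Gly2h, Ala1h and Ala2h. The step from Gly1h to Gly2h was 0.19, and the other steps were 0.068 or less, beside an SE of 0.12 for a single estimate. These SEs are not those of a step between probes.

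The probes of 1 amino acid were compared directly over the 3 ratios, of which ratios 1 and 2 share a Cy3 reading and so are not independent, while the sign-flip test counts them as separate. Ala1h minus Ala2h was -0.052, 0.23 and 0.075 in uncorrected log2 ratios, a mean of 0.083 ± 0.14 (SD, n = 3, exact two-sided sign-flip test, p = 0.50, adjusted p = 0.75 over 2 comparisons). With the dye control subtracted the mean was 0.036 ± 0.14 (SD, n = 3, exact p = 0.75, adjusted p = 0.75). The alanine probes crossed, with Ala1h lower than Ala2h in ratio 1 and higher in the other ratios.

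Gly1h minus Gly2h was -0.12, 0.20 and 0.098 uncorrected, a mean of 0.060 ± 0.16 (SD, n = 3, exact p = 0.75, adjusted p = 0.75). With the dye control subtracted it was 0.0049, 0.32 and 0.22, above 0 in 3 of 3 ratios, with a mean of 0.18 ± 0.16 (SD, n = 3, exact p = 0.25, adjusted p = 0.50). The smallest p that the exact sign-flip test can give with 3 ratios is 0.25, so this test could not pass the 0.05 level for either pair.

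Gly1h and Pro1h had the most similar pattern among the 5. Their uncorrected log2 ratios differed by a root mean square of 0.022 over the 3 ratios, and each was the nearest of the 40 other human probes to the other. After dye subtraction the difference was 0.072, which ranked Gly1h 2nd nearest to Pro1h and Pro1h 4th nearest to Gly1h. On the uncorrected ratios the next nearest probe was Asn1h, an asparagine probe, for Gly1h (0.058) and Lys3h, a lysine probe, for Pro1h (0.067). Nearest to Ala1h were Ile2h, an isoleucine probe (0.020), and Lys3h (0.039). Ala2h lay nearest to Gly2h (0.054) and to Trp1h, a tryptophan probe (0.069), while Gly2h lay nearest to Met2h, a methionine probe (0.034), and Leu3h, a leucine probe (0.041). After dye subtraction Asn1h was the nearest probe to Gly1h (0.037), while Lys3h was 27th from Pro1h (0.257) and Met2h was 22nd from Gly2h (0.151). Gly2h was 5th from Ala2h, and the other probes named were 2nd or 3rd. With 3 ratios, of which 2 share a Cy3 reading, such likeness describes these arrays only.

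The difference between ratios 1 and 2 arose in the Atto635 readings alone, since the Cy3 readings are the same. It was 0.41 in log2 for Gly1h and for Pro1h, 0.27 for Ala1h, 0.093 for Gly2h and -0.014 for Ala2h, while the median over all human probes was 0.21 higher in ratio 2. The control RNAs were therefore set side by side. On the log2 scale over the median standard of the same channel, with the median taken over the spots of each channel, Gly1h was at -0.68 and -0.97 in the knockdown RNAs 1 and 2, and at -0.66, -1.06 and -1.29 in the control RNAs 1, 2 and 3. Control RNA 1 was the highest of the 5 RNAs at Gly1h and control RNA 3 the lowest.

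Pro1h showed the same order, at -0.77 and -1.09 in the knockdown RNAs and -0.76, -1.21 and -1.37 in the control RNAs. Ala1h was at -4.50 and -4.75 in the knockdown RNAs and at -4.66, -4.81 and -5.01 in the control RNAs. Knockdown RNA 2 thus lay between control RNAs 1 and 2 for each of these probes.

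Ala2h was at -1.86 and -2.24 in the knockdown RNAs and at -2.13, -1.76 and -2.46 in the control RNAs, where control RNA 2 was the highest. This level, a median of 1 channel, puts control RNA 2 above knockdown RNA 1, whereas the median of the spot ratios in ratio 2 was above 0 (0.11), so the direction of Ala2h in ratio 2 depends on how spots are summarised. Gly2h was at -1.52 and -1.74 in the knockdown RNAs and at -1.66, -1.63 and -1.997 in the control RNAs. In each of the 5 probes the knockdown levels overlapped the control levels, and dye subtraction left that overlap in place. Here each channel was centred on its own median standard, and dye subtraction lowered the knockdown levels of all 5 probes. Pro1h went to -0.86 and -1.17 and Gly1h to -0.85 and -1.14, although their dye control ratios above were -0.10 and -0.013. Levels after dye subtraction, for these and for all human probes, therefore hold on this scale only. Of the 41 human probes, 7.32% had all knockdown levels above all control levels and 2.44% below them without dye correction, and 0% in either direction with it.

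The range over the 3 control RNAs was 0.70 in log2 for Ala2h, 0.63 for Gly1h, 0.61 for Pro1h, 0.37 for Gly2h and 0.36 for Ala1h. The upper end for Ala2h is control RNA 2, the reading whose summaries differ in direction. Between the 2 knockdown RNAs it was 0.39, 0.29, 0.31, 0.22 and 0.25 for the same probes. Each control range was wider than the probe's estimated change after knockdown. These levels cross arrays and dyes, so part of their spread may be technical, and that part was not tested.

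**Figure D4:**
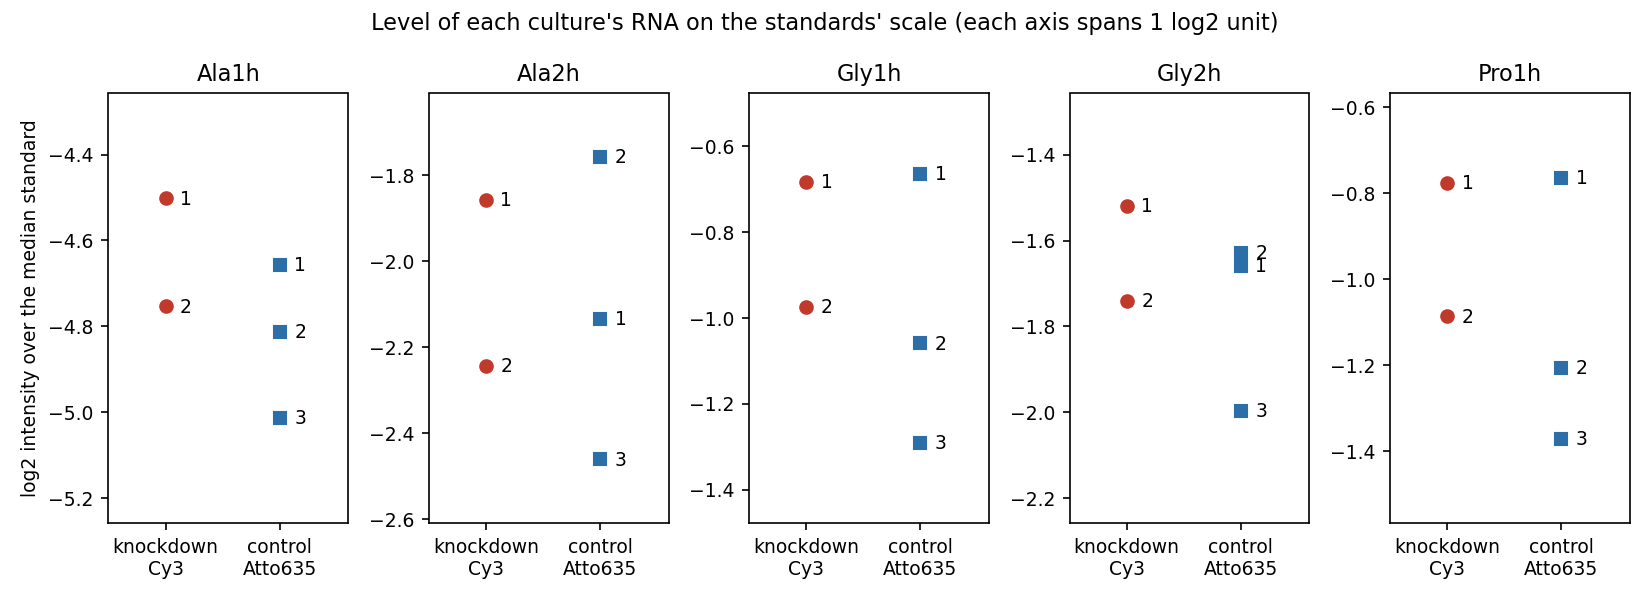
log2 intensity over the median spiked standard of the same channel for each probe, in the 2 knockdown RNAs (Cy3, circles) and the 3 control RNAs (Atto635, squares), numbered by culture, with each panel spanning 1 log2 unit. Knockdown and control values overlap in all 5 panels, and control RNA 3 is the lowest in each.

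Other treatments of the 3 ratios changed the call of single probes. Without any scaling limma called 5 of the 5 higher, as it did 97.6% of the 41, as the brighter Cy3 channel is not scaled out there. Without ratio 1, limma called Ala1h (0.29), Gly1h (0.30), Pro1h (0.28) and Gly2h (0.15) higher, as it did 75.6% of all 41 probes, while Ala2h (0.14) was not called. With the dye control subtracted and ratio 1 left out, 0 of the 5 and 0% of the 41 were called in either direction, with 3 of the 5 and 20 of the 41 at an unadjusted p under 0.05. With ratios 1 and 2 averaged first, Ala1h, Gly1h and Pro1h were called, as were 68.3% of all probes. Taken as independent, the ratios gave a call for Ala1h only (0.21, limma adjusted p = 0.0440), beside 48.8% of all probes. In each of these settings the share of the 5 that was called stood near or below the share of all 41. When each channel's spots were summarised before the ratio was taken, an alternative chosen after seeing the data, Ala2h in ratio 2 was at -0.19 in place of 0.11. In the same ratio Gly2h was at 0.019 in place of 0.13 and Ala1h at 0.22 in place of 0.34. Gly1h moved there from 0.33 to 0.29 and Pro1h from 0.32 to 0.34.

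The codon composition of the amino acids was set beside these values in lists that were given no test. Glycine, alanine, arginine and proline, whose codons are rich in G and C, had 9 probes on the array, the 5 described here and 4 for arginine. Their median estimate was 0.19 uncorrected, with 8 of 9 above 0, and limma called Arg3h higher and Arg1h lower. Phenylalanine, tyrosine, methionine, isoleucine, asparagine and lysine, whose codons are rich in A and U, had 11 probes with a median of 0.20, all 11 above 0, and Ile1h was called higher. The remaining 21 probes had a median of 0.27, 18 of them above 0, and His1h and Ser2h were called higher.

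With the dye control subtracted the medians were 0.098 for the 9 probes of GC-rich codons, 0.036 for the 11 of AU-rich codons and 0.040 for the other 21. Limma then called 0 of the 9, 0 of the 11 and 2 of the 21, His1h and Val1h. The median dye control ratio itself was 0.015, 0.12 and 0.16 in the 3 lists, and the part of the dyes in the differences between the lists was not tested.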

How the data were processed

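The authors deposited scanner tables of 800 spots per array, with spot intensity minus local background in each channel and the percent of saturated pixels, per the file headers. Scanner and software are not named there. The table of ratio 2 equals that of ratio 1 in 56 of 57 columns and differs in the background-subtracted Atto635 intensity. The authors also deposited a linear ratio per probe, with no normalization stated. Each 2 µg of total RNA received 4 tRNA standards at 4 pmol each, per the labels' protocols.

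The spot means less local background were put through normexp with an offset of 50 (limma 3.58.1, R 4.3.3). A probe's value was the median log2 ratio, Cy3 over Atto635, of its unflagged spots, centred on the median of the 4 standards, which have 24 spots each. Before centring, the standards' own median log2 ratios ran from 0.53 to 1.02 in ratio 1 and from 0.77 to 1.14 in ratio 2. They ran from 1.15 to 1.59 in ratio 3 and from 0.56 to 1.20 on the dye control array. This spread among the standards is not in the SE. For dye correction the dye control's log2 ratio was subtracted and the standards were centred again. The functions lmFit and eBayes fitted all 41 human probes, blocked by knockdown RNA at a preset correlation of 0.5, since 3 ratios allow no estimate. Benjamini-Hochberg adjustment ran over the 41 probes, and calls are at 0.05. The fit was also run on simulated ratios, drawn at the preset correlation and with no shift common to an array. That run cannot show how often the fit errs on these arrays. Arrays give no counts, and the number of arrays limits precision. The probes and lists were chosen with earlier results of these data known. Probes named beside the 5 are the 2 nearest to each in root mean square difference and those called in a list. The alternatives were other backgrounds, scalings, spot summaries, spot filters, correlations, dye subtraction, ratios left out and the deposited ratios.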

Additional observations from a re-analysis of the deposited data

Results flagged for a closer look

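Spots printed with water alone are outside the comparisons and carried signal far above their local background. Their median Cy3 intensity reached 11207 over 18 unflagged spots of ratio 3, 5925 over 23 of the dye control array and 4207.5 over 22 of ratio 1. By median pixel the values were 290, 116 and 33 in the same order. Of the 5 probes, 5, 3 and 2 had a lower median Cy3 intensity than the water spots on these arrays.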

How the results depend on the processing

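Over 26 alternatives, Gly1h and Pro1h kept a log2 ratio above 0 in all but 1, centring on the median human probe (-0.022 and -0.042). That centring also turned Ala2h (-0.075) and Gly2h (-0.088), and loess turned Ala2h (-0.063) and Gly2h (-0.057). Dye subtraction turned Ala1h (-0.092), Ala2h (-0.13) and Gly2h (-0.029), with median centring to -0.15, -0.19 and -0.089, and without normexp to -0.12, -0.13 and -0.020. With channel medians, chosen after seeing the data, they stood at -0.10, -0.17 and -0.030 after dye subtraction. The deposited ratios gave -0.086 for Ala1h and -0.070 for Ala2h. With dye subtraction and ratio 1, 2 or 3 left out, Ala1h stood at -0.032, -0.16 and -0.083, Gly2h at -0.0065, -0.045 and -0.048, and Ala2h between -0.14 and -0.12. Without dye subtraction, leaving out a ratio gave 0.15 to 0.29 for Ala1h, 0.12 to 0.14 for Ala2h, 0.079 to 0.15 for Gly2h, 0.097 to 0.30 for Gly1h and 0.075 to 0.28 for Pro1h.

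Of the 5 probes limma called 0, but 5 without scaling, 1 with independent ratios, 3 with ratios 1 and 2 averaged and 0 to 4 with a ratio left out. Against 5 calls among all human probes, there were 8 with median centring, 40 without scaling, 0 with loess (8 at an unadjusted p under 0.05), 12 without E.c. Lys-2, 11 without Yeast Phe-3, 1 with the mean of spots, 21 with independent ratios and 29 with ratios 1 and 2 averaged. Dye subtraction gave 2, without normexp 0 (6 unadjusted) and with channel medians 1. Leaving out a ratio gave 0 to 33, and 0 to 2 with dye subtraction. The median of the 5, at 0.17, moved to -0.042 with median centring, 1.12 without scaling, -0.029 with dye subtraction, -0.089 with median centring as well, -0.020 with dye subtraction and no normexp, -0.030 with dye subtraction and channel medians, and 0.021 in the deposited ratios. With dye subtraction and a ratio left out it ran from -0.048 to -0.0065, and without dye subtraction from 0.11 to 0.28. Without scaling, unequal dye brightness stays in every ratio. The cause of the other moves was not tested.

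No paired analysis beyond the ratios themselves was possible because all 3 ratios belong to 1 group. Each ratio already sets knockdown against control, but ratio 2 pairs the Cy3 readings of ratio 1 with the Atto635 readings of another control RNA.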
